A study of Mus musculus with 180 samples.

Results

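The genes of the unfolded protein response and the chaperones of the endoplasmic reticulum (ER) were followed across 15 mouse tissues. The set was a list of 38 symbols chosen by function, with earlier results of these data known. Of these, 37 were found by symbol among the 13820 genes of the deposited table, and Trib3 was not analysed here. The 37 were 16 ER chaperones and folding enzymes, 6 stress sensors and transcription factors, 4 targets of ATF4 and CHOP, 8 genes of ER-associated degradation and 3 genes of the translocon. RNA was measured by sequencing tags from the 3′ ends of poly(A) transcripts, with 1 library per tissue and mouse and 180 libraries in all. All mice were females of 6 weeks, perfusion was with PBS and EDTA, and tissues were taken at 12 hours. The PBS group was C57BL/6J mice 1 to 4. The LPS group was mice 5 to 8 of the same strain, which received lipopolysaccharide (LPS) at 5 mg/kg, an outer membrane glycolipid of Gram-negative bacteria sensed by innate immune cells. Mice 9 to 12 carried a disrupted gene for the cytokine TNF (B6.129S-Tnftm1Gkl/J) and received the same LPS dose. They are called TNF-deficient here. No TNF-deficient mice without LPS were among the samples, so the allele, its strain background and a changed response to LPS cannot be told apart.

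The ER folds secreted and membrane proteins with chaperones such as BiP (Hspa5) and GRP94 (Hsp90b1), with the calnexin and calreticulin lectin cycle, and with protein disulfide isomerases. When unfolded proteins accumulate, the sensors PERK (Eif2ak3), IRE1 (Ern1) and ATF6 act on separate branches: IRE1 splices Xbp1 mRNA, ATF6 is released as a transcription factor, and PERK phosphorylates eIF2α, which favours translation of ATF4 and, downstream, CHOP (Ddit3). XBP1 and ATF6 are known for inducing chaperones and degradation genes, ATF4 for inducing genes of amino acid supply and of feedback on eIF2α. Other eIF2α kinases also feed into ATF4, so ATF4 targets can rise without stress in the ER. Hepatocytes secrete most plasma proteins and hold much ER, and the liver makes the acute phase proteins after LPS. Splicing, phosphorylation and cleavage are not seen by a 3′ tag count, which reads the summed mRNA of a gene.

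Values are the authors' signal, gene counts scaled per library, and changes are differences of log2(signal + 1) from limma, with their standard error (SE). A gene was called where its Benjamini-Hochberg adjusted p over all genes of the tissue was below 0.05. Library totals ranged from 311128 to 2573806 counts, and from 788203 to 1341877 in liver, where 1 count was worth a signal of 1.12 to 2.00. All 37 genes passed the filter on low values in every tissue. The defining marker genes of each labelled tissue were present in it, but some did not separate it from a related tissue: the summed markers of white fat were higher in brown fat, and those of spleen and of inguinal lymph node overlapped between these 2 tissues. Tags of Tnf did not check the genotype: their mean signal was higher in TNF-deficient than in LPS mice in 15 of 15 tissues, for example 96.8 against 20.4 in lung, and the labels do not say which stretch of the gene was removed. In whole tissue, fewer cells of a type and less RNA per cell cannot be told apart. The p-values rest on the spread between mice within groups, pooled over the 3 groups of a tissue. In the main fit of all 180 libraries the spread was pooled over 45 groups. Tissues of the same mouse were treated there as independent.

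A promoter element recurred in the set. The genes were listed by their function in the unfolded protein response and ER folding. The recurrence is therefore not independent of the choice of list. RefSeq windows of GRCm38.p6, running from 250 bases before to 50 bases after a transcript start, were found for 31 of the 37 genes, and Manf, Hyou1, Hspa13, Atf6, Derl1 and Sec61a1 had none. The ER stress response element, known as a site of ATF6 and NF-Y, was searched on both strands as CCAAT and CCACG with 9 bases of any kind between them. It stood in the windows of 9 of the 31 genes (Calr, Canx, Creld2, Derl3, Dnajc3, Hsp90b1, Hspa5, Pdia6 and Syvn1), against 37 of 27025 genes, or 0.137%, over the whole table of windows. The shorter form, ATTGG and CCACG with 1 base between them, stood in 2 of the 31 (Dnajb11 and Herpud1), against 0.0444% of all genes. The XBP1 core TGACGTG stood in 1 (Hspa5), against 2.22%, and the ATF4 composite element TGATGNAA in 3 (Asns, Chac1 and Herpud1), against 4.51%. A match is a string of letters, not evidence of binding. Matches that overlap annotated exons, among them the ER stress response element of Hspa5, are not printed. The sequences below belong to genes whose values are described next, printed 5′ to 3′ on the strand in parentheses, with the matched element in capitals.
Hspa5, XBP1 core, chr2:34771917-34771955 (+): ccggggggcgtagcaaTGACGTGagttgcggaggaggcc
Hsp90b1, ER stress response element, chr10:86705622-86705672 (-): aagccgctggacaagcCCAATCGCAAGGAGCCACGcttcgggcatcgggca
Hsp90b1, a further ER stress response element, chr10:86705517-86705567 (+): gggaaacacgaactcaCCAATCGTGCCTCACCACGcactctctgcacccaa
Calr, ER stress response element, chr8:84847059-84847109 (+): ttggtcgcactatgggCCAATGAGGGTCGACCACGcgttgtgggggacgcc
Creld2, ER stress response element, chr15:88819504-88819554 (-): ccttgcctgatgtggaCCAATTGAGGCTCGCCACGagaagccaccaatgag
Syvn1, ER stress response element, chr19:6046516-6046566 (+): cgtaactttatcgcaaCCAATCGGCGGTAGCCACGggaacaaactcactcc
Derl3, ER stress response element, chr10:75893226-75893276 (-): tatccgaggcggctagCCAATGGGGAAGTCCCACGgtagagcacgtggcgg
Canx, ER stress response element, chr11:50325784-50325834 (-): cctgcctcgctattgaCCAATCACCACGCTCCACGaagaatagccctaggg
Herpud1, short ER stress response element, chr8:94386361-94386403 (+): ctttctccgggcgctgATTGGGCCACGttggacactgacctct
Chac1, ATF4 composite element, chr2:119351033-119351072 (-): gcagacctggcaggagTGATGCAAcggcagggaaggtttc

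In liver, LPS raised most of the listed ER chaperones and folding enzymes. Of the 37 genes, 23 were higher and 3 lower in LPS than in PBS livers, beside 11.6% and 13.5% of all liver genes tested. The median change of the 37 was 0.58 on the log2 scale, and that of all genes 0.06. By role, 12 of 16 chaperones and folding enzymes rose and 1 fell, 3 of 6 sensors and transcription factors rose and 1 fell, 2 of 4 ATF4 and CHOP targets rose, 4 of 8 degradation genes rose and 1 fell, and 2 of 3 translocon genes rose. The summed signal of the 16 chaperones and folding enzymes lay between 5286 and 6780.0 in the PBS livers, between 11910.0 and 16760.0 in the LPS livers and between 8883 and 9280.0 in the TNF-deficient livers, so that the 3 groups did not overlap.

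The Hspa5 signal, for the main ER HSP70 chaperone, was 678, 609, 494 and 538 in the PBS livers, 2657, 1063, 2499 and 3305 in the LPS livers and 679, 545, 543 and 579 in the TNF-deficient livers, in the order of the mouse numbers. Every LPS liver lay above every other liver, mouse 6 lowest among them, and the TNF-deficient livers overlapped the PBS livers. The change from PBS to LPS was 1.93 (SE 0.20, adjusted p = 4.8e-09), a factor of 3.81. Hsp90b1, the ER HSP90, had signals of 956, 926, 709.7 and 778 in the PBS livers, 3287, 2529, 2035 and 3581 in the LPS livers and 1574, 1471, 1362 and 1450 in the TNF-deficient livers. LPS raised it by 1.74 (SE 0.13, adjusted p = 8.3e-12), and its TNF-deficient livers formed a middle level apart from both other groups. Calr encodes calreticulin, the soluble lectin chaperone, and read 1930, 2055, 1629 and 1891 in the PBS livers, 4111, 4313, 3536 and 4197 in the LPS livers and 3091, 3613, 3234 and 3383 in the TNF-deficient livers. Its change with LPS was 1.11 (SE 0.10, adjusted p = 1.7e-10), and here the TNF-deficient livers overlapped the LPS livers.

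Smaller ER resident proteins rose too. Creld2, an ER stress-induced disulfide isomerase, had signals of 84.0, 86.7, 72.5 and 74.1 in the PBS livers, 617, 356, 439 and 711 in the LPS livers and 175, 177, 143 and 168 in the TNF-deficient livers. Among the folding genes it rose most, by 2.68 (SE 0.16, adjusted p = 4.3e-14) or 6.40-fold, and the 3 groups were apart. Manf, a secreted and ER-retained survival factor that binds BiP, read 252, 227, 158 and 233 in the PBS livers, 1008, 529, 933 and 1226 in the LPS livers and 289.9, 270.3, 272 and 322 in the TNF-deficient livers. It rose by 2.04 (SE 0.17, adjusted p = 8.1e-11), with the LPS livers apart from the rest. Sdf2l1, a partner of the BiP cofactor DNAJB11, read 64.0, 65.9, 52.0 and 74.1 in the PBS livers, 290.1, 142, 174 and 231 in the LPS livers and 139, 129, 143 and 147 in the TNF-deficient livers and rose by 1.65 (SE 0.17, adjusted p = 3.7e-09). Mouse 6 was again the lowest LPS liver for all 3 genes, and still above every PBS liver.

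Further folding genes rose by smaller amounts. Dnajb11, a BiP cofactor, rose by 1.04, Hyou1, the nucleotide exchange factor of BiP, by 0.90, Pdia3, the isomerase of the lectin cycle, by 0.65 and Pdia6 by 0.58. Pdia4 (0.41) and the BiP cofactor Dnajc3 (0.38) passed with overlapping groups, and both calls were lost when single mice were left out (adjusted p = 0.074, 0.099 and 0.083 for Pdia4 without mouse 3, 5 or 8, and 0.058, 0.15 and 0.12 for Dnajc3 without mouse 1, 3 or 8). The changes of Pdia5, Dnajb9 and Hspa13 were 0.24, 0.48 and 0.03 and were not called. Canx, the membrane-bound lectin partner of calreticulin, went the other way. It read 696, 780.3, 582 and 752 in the PBS livers, 496, 472, 383 and 483 in the LPS livers and 665, 545, 640 and 608 in the TNF-deficient livers, with every LPS liver below every PBS liver, and fell with LPS by 0.61 (SE 0.11, adjusted p = 6.2e-05). Calr and Canx, whose products share the lectin cycle and whose promoter windows both hold the ER stress response element, thus changed in opposite directions in the same livers.

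**Figure D1:**
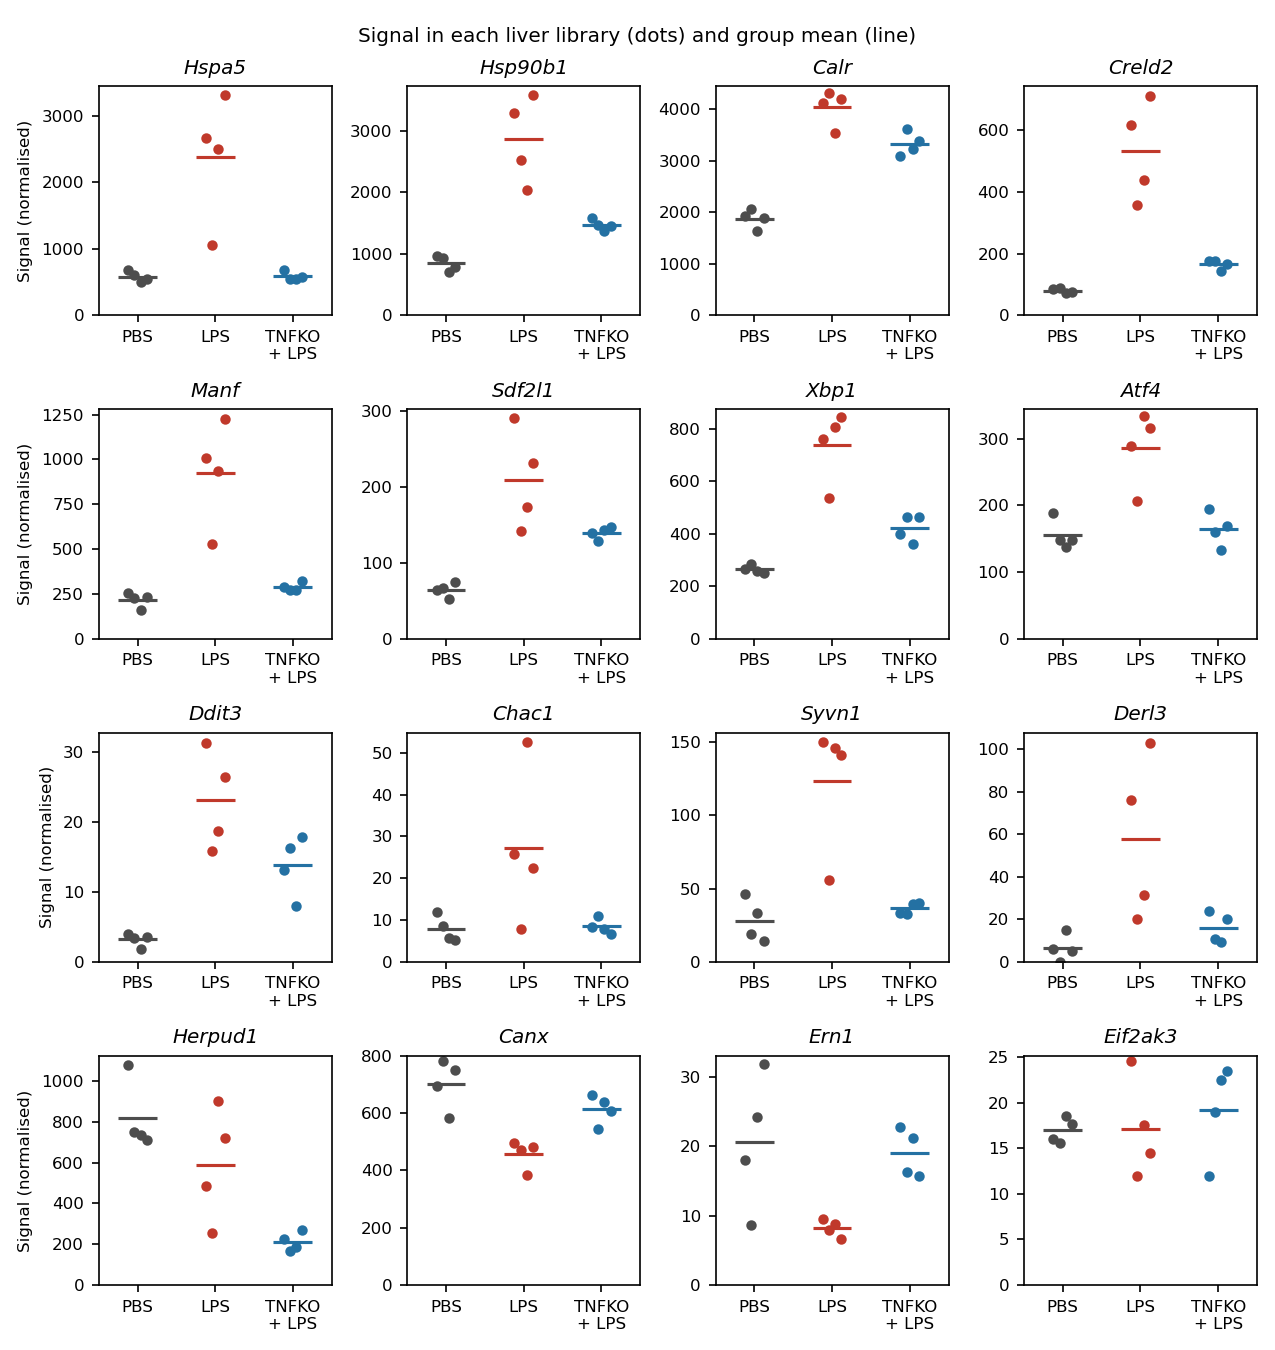
Liver signal of 16 genes of the unfolded protein response and ER folding, 1 panel per gene, with the signal on a linear axis from 0 and the 3 groups of mice (PBS, LPS, TNF-deficient with LPS) along the other axis; dots are libraries and lines are group means. Hspa5 in the TNF-deficient livers sits at the PBS level while Hsp90b1, Creld2 and Xbp1 sit between the PBS and LPS levels, and Canx and Ern1 are lower in the LPS group.

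Of the 3 sensors, none rose in liver. Eif2ak3, which encodes PERK, read 16, 15.6, 18.6 and 17.6 in the PBS livers, 24.5, 11.9, 17.5 and 14.5 in the LPS livers and 12.0, 19.0, 22.5 and 23.5 in the TNF-deficient livers. All groups overlapped, and the change with LPS was -0.03 (SE 0.29, adjusted p = 0.96). Ern1, which encodes IRE1, read 18.0, 8.67, 24.1 and 31.8 in the PBS livers, 9.53, 7.96, 8.75 and 6.59 in the LPS livers and 22.8, 16.3, 21.2 and 15.6 in the TNF-deficient livers. It fell with LPS by 1.11 (SE 0.33, adjusted p = 0.014); the PBS and LPS groups overlapped, and without PBS mouse 4 the change was -0.87 (adjusted p = 0.076). Atf6 read 49.99, 55.5, 70.6 and 72.3 in the PBS livers, 99.4, 49.1, 65.0 and 81.7 in the LPS livers and 63.5, 44.8, 37.1 and 48.0 in the TNF-deficient livers, and its change of 0.22 was not called. The transcription factors did rise. Xbp1, the target of IRE1, read 264, 284, 258 and 249 in the PBS livers, 760, 536, 804 and 844 in the LPS livers and 398, 463, 362 and 462 in the TNF-deficient livers, with 3 separate levels and a change of 1.46 (SE 0.12, adjusted p = 9.8e-11). Atf4 read 188, 147, 138 and 148 in the PBS livers, 289, 207, 334 and 315 in the LPS livers and 194, 160.3, 132 and 169 in the TNF-deficient livers and rose by 0.87 (SE 0.14, adjusted p = 2.5e-05); the LPS livers were apart from both other groups.

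Ddit3, the gene of the pro-apoptotic factor CHOP, was close to the detection limit without LPS. Its signals were 4.00, 3.47, 1.86 and 3.53 in the PBS livers, 31.3, 15.9, 18.8 and 26.4 in the LPS livers and 13.2, 16.3, 7.95 and 17.9 in the TNF-deficient livers, where a PBS value of 3.53 stands for a few counts. It rose by 2.5 (SE 0.36, adjusted p = 2.7e-06), with no overlap of the LPS and PBS groups. Ddit3 overlaps Mars on the opposite strand, and since the labels do not name the strand used in counting, tags of the 2 genes may be mixed. The same holds for Pdia6 with Atp6v1c2, Manf with Dcaf1, Syvn1 with Mrpl49, Derl2 with Mis12 and Sec61a1 with Gm44170. Manf also overlaps Rbm15b on the same strand, where counting by strand would not separate the tags. Among the 4 targets, Chac1, a glutathione-degrading enzyme induced by ATF4, read 12.0, 8.67, 5.57 and 5.29 in the PBS livers, 25.9, 7.96, 52.5 and 22.4 in the LPS livers and 8.38, 10.9, 7.95 and 6.70 in the TNF-deficient livers. It rose by 1.46 (SE 0.41, adjusted p = 0.0081), but LPS mouse 6 lay within the PBS range, and without mouse 7 the change was 1.07 (adjusted p = 0.072). Asns, asparagine synthetase, rose by 0.85 (adjusted p = 0.0071). Ppp1r15a, the GADD34 subunit that dephosphorylates eIF2α, and Sesn2 had changes of 0.45 and 0.87 that were not called.

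ER-associated degradation split within its own list. Derl3, a derlin of the degradation channel, read 6.00, 0, 14.9 and 5.29 in the PBS livers, 76.3, 19.9, 31.3 and 103 in the LPS livers and 24.0, 10.9, 9.28 and 20.1 in the TNF-deficient livers. It had the largest change of the 37, 3.23 (SE 0.56, adjusted p = 4.1e-05), from a low base that included 1 PBS library at 0. Syvn1, the ubiquitin ligase HRD1, read 46.0, 19.1, 33.4 and 14.1 in the PBS livers, 149.8, 55.7, 146 and 141 in the LPS livers and 33.5, 32.6, 39.8 and 40.2 in the TNF-deficient livers and rose by 2.13 (SE 0.29, adjusted p = 9e-07), with every LPS liver above every other liver. Selenos, a membrane component of the same complex, rose by 0.79 (adjusted p = 0.00072) and Edem1, which trims glycans of doomed proteins, by 0.39. Edem1 was not called when mouse 4, 5 or 8 was left out (adjusted p = 0.091, 0.062 and 0.13). Herpud1, an HRD1 partner, read 1078, 751, 738 and 713 in the PBS livers, 485, 253, 902 and 722 in the LPS livers and 228, 164, 187 and 268 in the TNF-deficient livers. LPS mice 5 and 6 lay below every PBS liver and mice 7 and 8 within the PBS range, and the change of -0.60 (SE 0.23, adjusted p = 0.055) was not called. Derl2 fell by 0.60, a call lost without PBS mouse 2 (-0.38, adjusted p = 0.093) or LPS mouse 7 (-0.50, adjusted p = 0.055). Derl1 and Sel1l were at 0.22 and 0.38, not called. In the translocon, Sec61a1 (0.39) and Sec61b (0.38) passed and Ssr1 (0.07) did not. Each of the Sec61 calls was lost when 1 of several mice was left out: for Sec61a1 mouse 3, 4, 7 or 8 (adjusted p = 0.092, 0.093, 0.061 and 0.054), for Sec61b mouse 3, 4, 5, 6 or 8 (0.10, 0.16, 0.11, 0.062 and 0.11).

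Markers of other cell types moved with LPS in the same livers. The summed signal of 12 neutrophil genes was 989.7 to 1262 in PBS, 10310.0 to 12780.0 in LPS and 11780.0 to 13310.0 in TNF-deficient livers. Only 5 of the 12 were called higher in LPS than in PBS livers, and 0 lower, so the sum does not speak for each gene. The sum of 10 macrophage genes was 518.4 to 638.1, 271.4 to 358.2 and 301.5 to 367.7, with 6 of them lower and 1 higher in LPS than in PBS livers. For 7 plasma cell genes the ranges were 357.9 to 399.5, 422.2 to 542.7 and 373.5 to 458.7, with 1 called higher. For 14 pancreatic acinar genes they were 70.6 to 550.4, 25.2 to 33.0 and 27.8 to 49.2, with 8 called lower and Cela2a, Cel and Amy2a5 at 0 in the TNF-deficient livers. The neutrophil sums of the LPS and TNF-deficient livers overlapped, and 0 of the 12 genes were called between these groups. The part of these cells in the changes was not tested.

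Livers of TNF-deficient mice given LPS were compared with livers of wild-type mice given LPS, which also enter the comparison with PBS. In this comparison 13 of the 37 genes were lower and 3 higher, beside 3.43% and 5.96% of all genes, with a median of -0.53 for the 37 and 0.02 for all genes. Of the 16 chaperones and folding enzymes, 7 were lower and 2 higher. Hspa5 was lower by 1.91 (SE 0.20, adjusted p = 6.4e-08) and differed from PBS livers by 0.02. Creld2 was lower by 1.63 (SE 0.16, adjusted p = 1.6e-08), Syvn1 by 1.63 (SE 0.29, adjusted p = 0.00021) and Manf by 1.62 (SE 0.17, adjusted p = 8.5e-08). Of these 4, Creld2 remained above PBS livers, by 1.05 (adjusted p = 6.6e-06), and the differences of Manf (0.42) and Syvn1 (0.50) from PBS were not called. Herpud1 was lower than in LPS livers by 1.35 (SE 0.23, adjusted p = 0.00013) and lower than in PBS livers by 1.95 (SE 0.23, adjusted p = 1.3e-07). Its 4 TNF-deficient libraries lay below all 4 PBS libraries. It was the 1 member called lower against PBS in liver, a count that became 2 with median-of-ratios scaling, with edgeR and without mouse 1, 3 or 10.

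Smaller differences between the genotypes followed. Hsp90b1 (-0.93), Xbp1 (-0.79), Atf4 (-0.79) and Hyou1 (-0.63) were lower in TNF-deficient livers with adjusted p of 8.7e-06, 4e-05, 0.00034 and 0.0041. Atf4 was at the PBS level (0.07 against PBS), while Hsp90b1 (0.81) and Xbp1 (0.67) stayed above it. The differences between genotypes of Calr (-0.28, adjusted p = 0.068), Dnajb11 (-0.32), Ddit3 (-0.71), Derl3 (-1.60, adjusted p = 0.073) and Pdia4 (0.02) were not called. Calr, Dnajb11 and Ddit3 were higher in TNF-deficient than in PBS livers by 0.83, 0.72 and 1.79. Against PBS, 13 of the 37 were higher and 1 lower in TNF-deficient livers, beside 6.50% and 7.72% of all genes.

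Several liver calls between the genotypes were lost when single mice were left out. The 3 genes higher in TNF-deficient livers were Ern1 (1.11 (SE 0.33, adjusted p = 0.033)), Canx (0.42 (SE 0.11, adjusted p = 0.01)) and Pdia5 (0.38 (SE 0.12, adjusted p = 0.049)). Ern1 lost its call without mouse 7, 8, 9 or 11 (adjusted p = 0.053, 0.094, 0.11 and 0.094), the Canx call without mouse 7 (0.34, adjusted p = 0.059), and the Pdia5 call without any 1 of mice 5, 7, 8, 9, 11 and 12 (adjusted p = 0.055 to 0.18). Pdia5 read 158, 184, 150.5 and 141 in the PBS livers, 203, 200.3, 179 and 166 in the LPS livers and 271, 213, 227 and 262 in the TNF-deficient livers. Among the lower genes, the call was lost for Dnajb9 (-0.98) without mouse 8 (-0.76, adjusted p = 0.051). Selenos (-0.59) lost it without mouse 8, 10, 11 or 12 (adjusted p = 0.17, 0.083, 0.055 and 0.062), Sdf2l1 (-0.53) without mouse 5 or any of 8 to 12 (adjusted p = 0.068 to 0.23), and Chac1 (-1.32) without mouse 5, 7, 8, 9, 11 or 12 (adjusted p = 0.08 to 0.24). Without mouse 7 no gene of the set was higher in TNF-deficient than in LPS livers, and without mouse 8, 9 or 11 there was 1.

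Outside the liver the parts of the pathway separated. Over the other 14 tissues, 102 of 518 tests of a member in a tissue were higher and 61 lower with LPS, beside 9.31% and 10.2% of all such tests. The 6 sensors and transcription factors were higher in 31 of 84 tests and lower in 0, and the 4 ATF4 and CHOP targets higher in 25 of 56 and lower in 0. The 16 chaperones and folding enzymes were higher in 25 of 224 tests and lower in 51, with a median of -0.08. The 8 degradation genes were higher in 15 and lower in 7 of 112 tests, and the 3 translocon genes higher in 6 and lower in 3 of 42. The tissues were taken from the same 12 mice, so these tests are not independent.

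**Figure D2:**
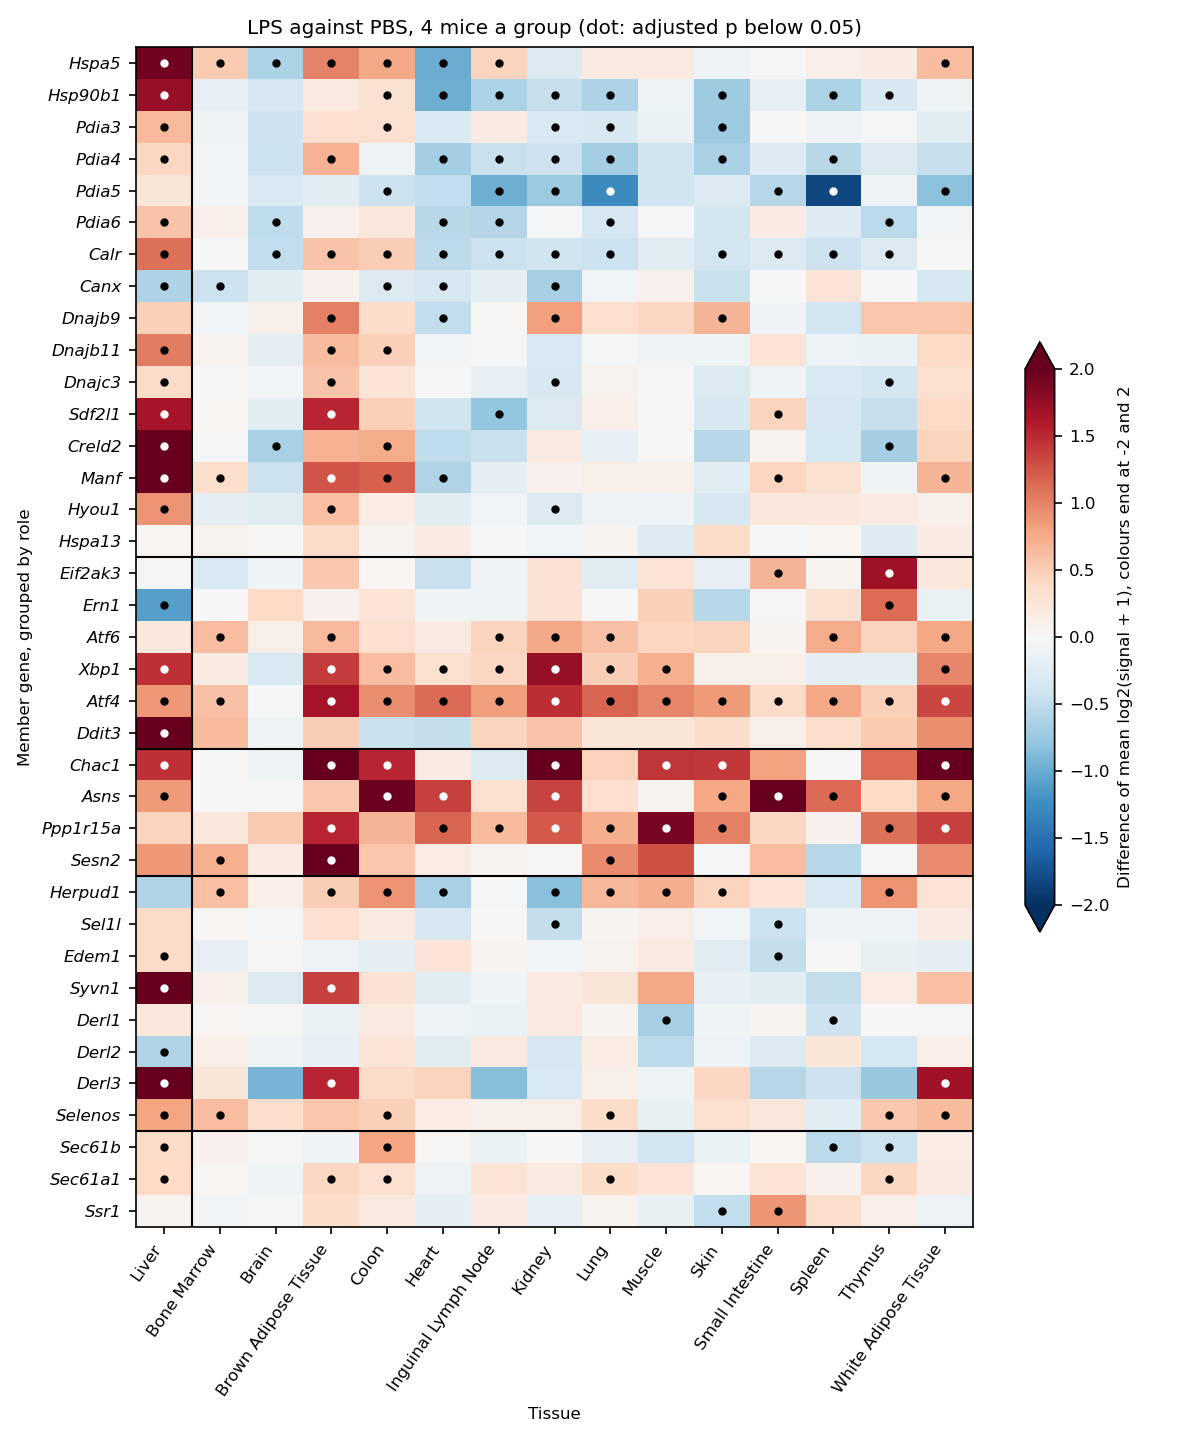
Change with LPS (LPS minus PBS, log2 of signal + 1) of the 37 genes, ordered by role, in each of the 15 tissues; the colour scale ends at -2 and 2, and a dot marks an adjusted p below 0.05. Atf4 is called higher in every column except brain, while the chaperone block is red in liver, brown fat and colon and mostly blue in heart, kidney and lung.

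Atf4 was the member with the widest rise. It was called higher in 14 of 15 tissues, from small intestine (0.38 (SE 0.12, adjusted p = 0.031)) to kidney (1.48 (SE 0.11, adjusted p = 2.6e-11)) and brown fat (1.66 (SE 0.13, adjusted p = 9.3e-09)). In brown fat the signals were 122, 168, 109 and 139 in the PBS mice, 477, 411, 360.1 and 454 in the LPS mice and 180, 177, 196 and 169.9 in the TNF-deficient mice. In kidney they were 103, 99.2, 94.0 and 100.4 in the PBS mice, 266, 222, 323 and 317 in the LPS mice and 126, 134, 122 and 130.1 in the TNF-deficient mice. In both tissues the LPS libraries stood above all others. In brain the change was -0.03 (SE 0.10) and the groups overlapped. In small intestine the call was lost in 6 of 8 fits that left out 1 mouse. Xbp1 rose in 9 tissues, most in kidney, where the signals were 153, 148, 146 and 142 in the PBS mice, 518, 318, 614 and 591 in the LPS mice and 216, 217, 206 and 239 in the TNF-deficient mice and the change was 1.74 (SE 0.13, adjusted p = 9.2e-11). In brown fat Xbp1 rose by 1.39 (SE 0.14, adjusted p = 2.1e-07).

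Targets of ATF4 rose in several tissues each, with overlap: Chac1 and Asns, for example, both rose in liver, colon, kidney, skin and white fat. Chac1 rose in 7 tissues. It lost its call in colon without mouse 1, 2, 4, 7 or 8 and in skin without mouse 2 or 6. In brown fat it read 3.60, 2.35, 3.68 and 2.81 in the PBS mice, 47.4, 58.4, 19.0 and 67.9 in the LPS mice and 16, 12.7, 9.68 and 11.2 in the TNF-deficient mice, a change of 3.45 (SE 0.35, adjusted p = 2.8e-07) and the largest of any member in any tissue. In white fat it read 1.64, 4.94, 2.28 and 4.67 in the PBS mice, 24.9, 46.4, 8.26 and 23.5 in the LPS mice and 12.8, 10.4, 8.31 and 3.13 in the TNF-deficient mice (2.48 (SE 0.45, adjusted p = 0.00037)). In both fats all 4 LPS libraries stood above all PBS libraries, and LPS mouse 7 was lowest. In kidney it read 1.40, 3.84, 1.91 and 2.14 in the PBS mice, 14.7, 12.2, 7.33 and 15.7 in the LPS mice and 2.81, 2.65, 3.31 and 3.40 in the TNF-deficient mice (2.02 (SE 0.30, adjusted p = 5.6e-06)), with the TNF-deficient kidneys within the PBS range. Asns rose in 8 tissues and most in the gut. Its signals in small intestine were 48.7, 51.5, 26.4 and 33.2 in the PBS mice, 162, 105, 192 and 192 in the LPS mice and 96.3, 111, 100.6 and 121 in the TNF-deficient mice, and the change was 2.01 (SE 0.19, adjusted p = 1e-07). In colon they were 38.8, 32.3, 70.7 and 44.1 in the PBS mice, 183, 99.7, 233 and 225 in the LPS mice and 90.9, 100.7, 99.1 and 89.7 in the TNF-deficient mice, with a change of 1.96 (SE 0.20, adjusted p = 1.9e-08). Mouse 6 was the lowest LPS library in both, still above the PBS libraries.

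Ppp1r15a rose in 9 tissues, not including liver, and most in muscle, where it read 23.0, 39.5, 31.3 and 37.0 in the PBS mice, 117, 126, 122 and 121 in the LPS mice and 100.8, 91.8, 105 and 111 in the TNF-deficient mice. The change was 1.89 (SE 0.16, adjusted p = 3.8e-11), and the LPS libraries spanned a narrow range above the rest. Sesn2, a stress-induced regulator of mTORC1, was called in 3 tissues. Ddit3 was called in no tissue other than liver; its changes elsewhere ran from -0.48 to 0.92. Of the sensors, Atf6 rose in 7 tissues, Ern1 in thymus alone and Eif2ak3 in thymus and small intestine. In thymus Eif2ak3 read 25.8, 23.8, 20.4 and 19.4 in the PBS mice, 78.6, 70.5, 75.9 and 71.6 in the LPS mice and 18.8, 33.1, 31.0 and 31.7 in the TNF-deficient mice, a change of 1.69 (SE 0.17, adjusted p = 6e-11). The TNF-deficient thymi overlapped the PBS thymi and differed from the LPS thymi by -1.37 (SE 0.17, adjusted p = 2e-07). Summed T cell genes in thymus were 3597 to 3771 in PBS, 1788 to 2438 in LPS and 3226 to 3607 in TNF-deficient mice, with 8 called lower with LPS; their part in the Eif2ak3 change was not tested. The Eif2ak3 call in small intestine (0.68) was lost in 4 of 8 fits without 1 mouse, and the Ern1 call in thymus (1.12) in 3 of 8. The Atf6 call in brown fat was lost without mouse 1, 3, 4, 5, 7 or 8. In inguinal lymph node it was lost without mouse 1, 2, 5, 7 or 8, and in white fat without mouse 3, 4, 5 or 7.

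Outside the liver, chaperones and folding enzymes rose mostly in brown fat, with 9 of the 16 higher and 0 lower, and in colon, with 7 higher and 2 lower. In brown fat, 19 of the 37 members were higher and 0 lower, beside 9.09% and 9.28% of all genes, with a median of 0.55 against 0.06. In colon 15 were higher and 2 lower, beside 9.45% and 7.76%; the lower calls numbered 1 without mouse 1, 2, 3 or 6 and 0 without mouse 4, 7 or 8. Hspa5 in brown fat read 151, 221, 156 and 220.2 in the PBS mice, 425, 409.8, 326 and 321 in the LPS mice and 356, 363, 447 and 387 in the TNF-deficient mice and rose by 0.99 (SE 0.14, adjusted p = 2.1e-05). Sdf2l1 there rose by 1.52 (SE 0.27, adjusted p = 0.00032), with LPS mice 7 and 8 lower than mice 5 and 6. In colon Manf read 101.2, 88.0, 102 and 106 in the PBS mice, 254, 248, 185 and 233 in the LPS mice and 213, 203, 198 and 208 in the TNF-deficient mice and rose by 1.2 (SE 0.11, adjusted p = 1.4e-09), and Hspa5 rose by 0.76 (SE 0.09, adjusted p = 4.1e-07). The TNF-deficient libraries of Hspa5 overlapped the LPS libraries in brown fat and stood above them in colon, where they read 404, 386, 412 and 403 against 379.8, 383, 328 and 318.

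In 8 tissues at least 4 chaperones and folding enzymes fell with LPS: 8 in heart, 8 in kidney, 6 in lung, 6 in inguinal lymph node, 5 in thymus and 4 each in brain, spleen and skin. Over all 37 members, heart had 4 higher and 9 lower (beside 9.83% and 12.3% of all genes), kidney 7 and 10 (16.2% and 21.9%), lung 8 and 6 (11.7% and 13.9%), lymph node 5 and 6 (9.97% and 12.6%), thymus 7 and 6 (9.70% and 8.83%), spleen 3 and 6 (8.04% and 7.75%) and skin 6 and 5 (9.45% and 8.46%). In kidney, lung and lymph node the counts of lower members, 27.0%, 16.2% and 16.2% of the 37, were near the share over all genes. In brain 0 were higher and 4 lower (2.32% and 2.03%). The other tissues had 10 higher and 1 lower in white fat (7.49% and 6.25%), 7 and 1 in bone marrow (10.6% and 12.3%), 6 and 4 in small intestine (9.92% and 13.4%) and 5 and 1 in muscle (6.72% and 5.76%). Some of these counts moved when 1 mouse was left out. Higher members in lymph node numbered 3 without mouse 2, 7 or 8, and in small intestine 3 without mouse 4 or 8. Lower members in skin numbered 3 without mouse 1 or 8 and 8 without mouse 6, in white fat 0 without mouse 2, 4, 5 or 7 and 3 without mouse 6, and in bone marrow 2 without mouse 3 or 6. In brain edgeR called 2 higher and 8 lower.

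In heart the main chaperones fell. Hspa5 there read 448, 525, 756 and 793 in the PBS mice, 308, 298, 269.9 and 362 in the LPS mice and 769, 493, 590.2 and 540.3 in the TNF-deficient mice, and Hsp90b1 read 396, 469, 664 and 602 in the PBS mice, 266, 267, 238 and 286 in the LPS mice and 672, 404, 524 and 528 in the TNF-deficient mice. For both genes the LPS libraries lay below all others, and the TNF-deficient libraries overlapped the PBS libraries. The changes with LPS were -0.99 (SE 0.14, adjusted p = 3.1e-06) and -0.98 (SE 0.13, adjusted p = 1.1e-06). The summed signal of the 16 chaperones and folding enzymes in heart was 2875 to 3799 in PBS, 2010.0 to 2326 in LPS and 3051 to 4354 in TNF-deficient mice, so the direction was opposite to that in liver. Summed neutrophil genes in heart were 725.8 to 920.2 in PBS, 2078 to 2907 in LPS and 1805 to 2129 in TNF-deficient mice. Of the 12 genes, only 1 was called higher with LPS and 1 was called lower. Their part was not tested.

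Pdia5, a protein disulfide isomerase, was called lower in 7 tissues and higher in 0. In spleen it read 53.2, 43.5, 53.7 and 38.9 in the PBS mice, 21.3, 14.7, 4.71 and 16.2 in the LPS mice and 20.2, 21.2, 13.8 and 12.0 in the TNF-deficient mice, a change of -1.81 (SE 0.31, adjusted p = 4e-05), with TNF-deficient and LPS spleens overlapping. In lung it read 36.7, 42.3, 37.3 and 32.7 in the PBS mice, 14.4, 19.0, 8.88 and 19.4 in the LPS mice and 26.6, 25.3, 28.8 and 27.9 in the TNF-deficient mice, a change of -1.27 (SE 0.21, adjusted p = 2.4e-05), with the TNF-deficient lungs between the other groups. Calr was lower in 9 tissues and higher in 3, Hsp90b1 lower in 7 and higher in 2, and Canx lower in 5 and higher in 0. Spleen plasma cell genes, summed over 7 genes, were 839.1 to 1147 in PBS, 441.8 to 655.2 in LPS and 558.4 to 941.9 in TNF-deficient mice, with 4 called lower with LPS. Spleen B cell sums were 2107 to 2568, 905.9 to 1428 and 1514 to 1717. Pancreatic acinar genes, which belong to another organ, reached 84.8 to 700.2 in LPS spleens, with 13 of 14 called higher, beside 25.1 to 34.4 in PBS and 17.3 to 121.1 in TNF-deficient spleens. In lung, neutrophil sums were 766.8 to 830.1, 8762 to 11310.0 and 7622 to 10970.0. The part of any of these in the values of Pdia5 and the chaperones was not tested.

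Herpud1 moved in both directions among the tissues. It rose in 7 tissues, by 0.90 (SE 0.12, adjusted p = 1.1e-07) in thymus, and fell in kidney and heart. The rise lost its call in brown fat without mouse 1, 2, 5, 6 or 8, and in skin without mouse 1, 2 or 6. Kidney read 447, 358, 450.5 and 368 in the PBS mice, 222, 254, 222 and 212 in the LPS mice and 188, 205, 155 and 281 in the TNF-deficient mice, with all LPS and TNF-deficient kidneys below the PBS kidneys and a change with LPS of -0.83 (SE 0.13, adjusted p = 7.9e-06). In heart the change was -0.64 (SE 0.14, adjusted p = 0.0013), and TNF-deficient hearts were higher than LPS hearts by 1.27 (SE 0.14, adjusted p = 1.6e-06). Ssr1, the translocon-associated protein TRAP alpha, rose in small intestine, where it read 79.7, 112, 97.5 and 102 in the PBS mice, 186, 174, 176 and 186 in the LPS mice and 156, 141, 146 and 156 in the TNF-deficient mice (0.89 (SE 0.11, adjusted p = 2.6e-06)), and fell in skin.

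**Figure D3:**
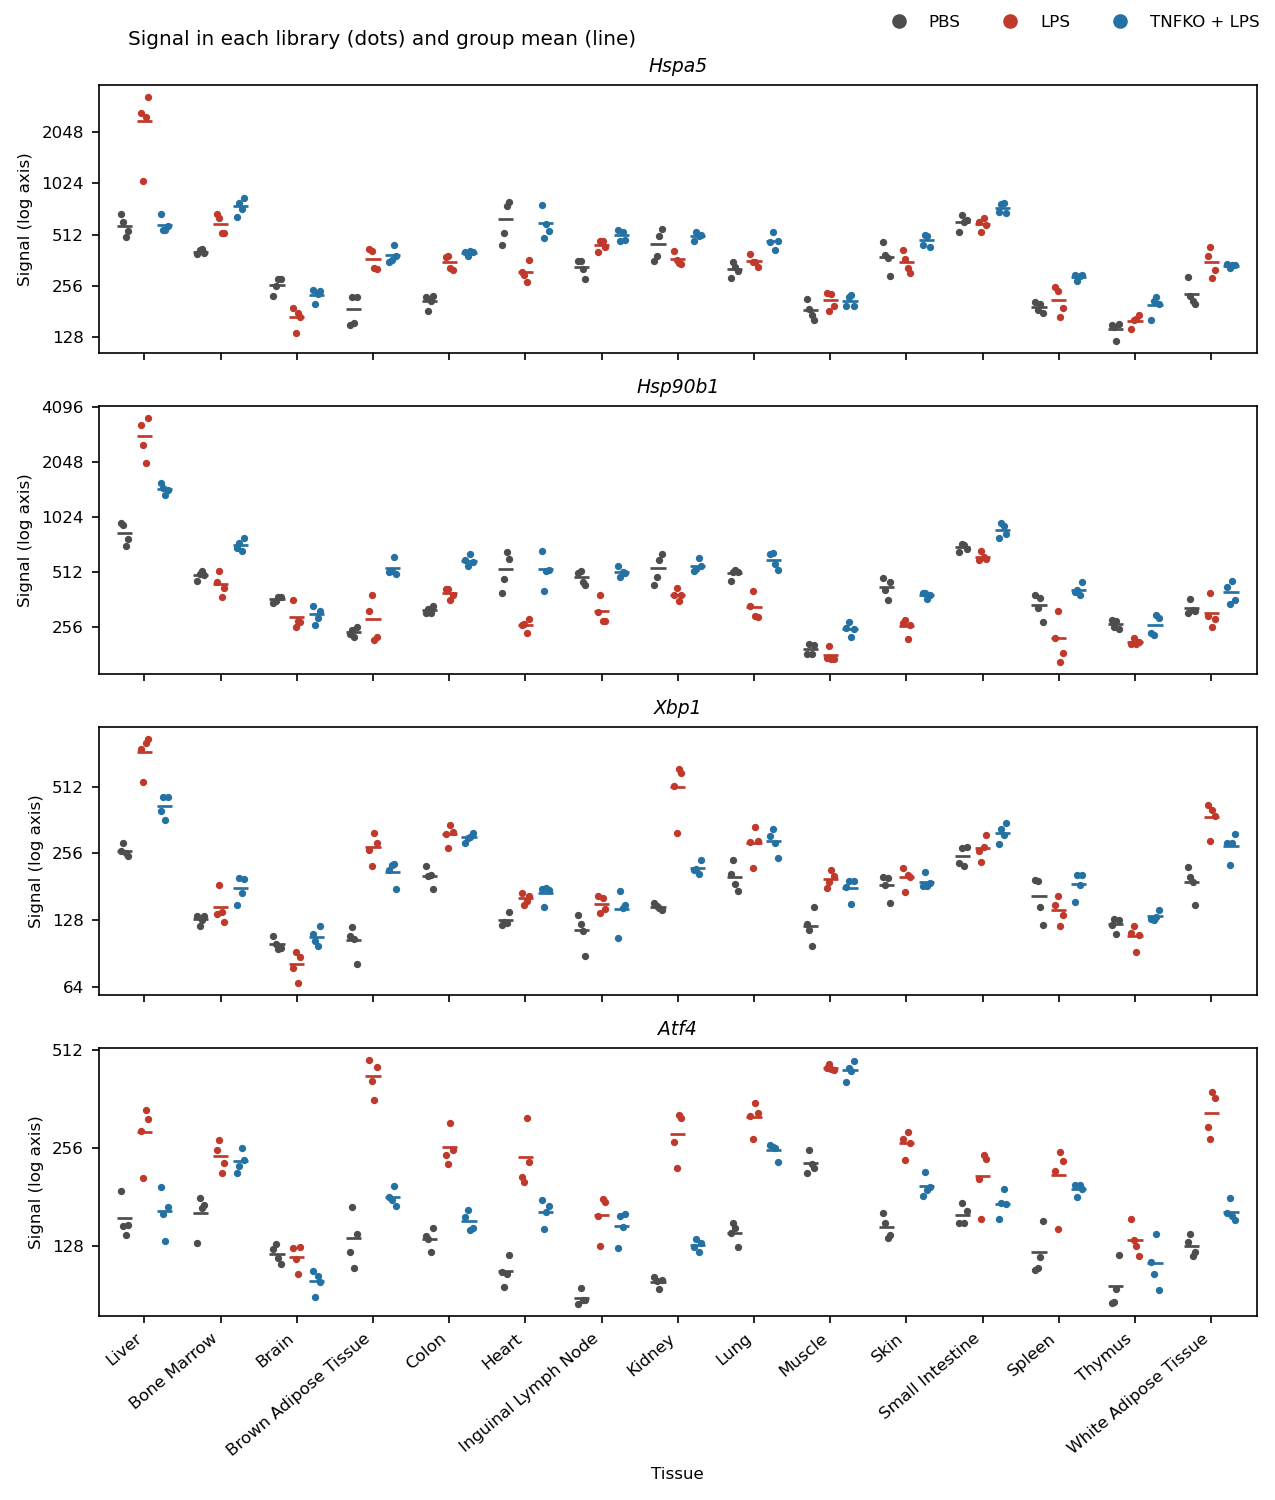
Signal of Hspa5, Hsp90b1, Xbp1 and Atf4 in each library of the 15 tissues on a log2 axis, coloured by group (PBS, LPS, TNF-deficient with LPS). Atf4 and Xbp1 move up with LPS in liver, kidney and brown fat alike, whereas Hspa5 and Hsp90b1 move up in liver and down in heart.

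Liver was then set against the mean of the 14 other tissues in 1 fit of all 180 libraries. The change with LPS was larger in liver for 20 of the 37 genes and smaller for 4, beside 13.6% and 13% of all genes, with a median difference of 0.44 for the 37 and 0.06 for all genes. Such a difference also takes in changes of the other tissues. Pdia5 was among the 20, and Herpud1 among the 4, without a called change within liver. The largest differences were those of Derl3, 3.17 (SE 0.52, adjusted p = 1.9e-07), Creld2, 2.77 (SE 0.22, adjusted p = 8e-24), Ddit3, 2.22 (SE 0.44, adjusted p = 2.2e-05), and Hsp90b1, 2.07 (SE 0.13, adjusted p = 1.6e-32). Hspa5 followed with 1.79 (SE 0.15, adjusted p = 1.9e-22), Syvn1 with 1.97, Manf with 1.82 and Sdf2l1 with 1.63. No difference was called for Atf4 or its listed targets, unlike for Ddit3: it was -0.03 (SE 0.13, adjusted p = 0.88) for Atf4, 0.06 (SE 0.25, adjusted p = 0.89) for Asns, 0.43 (SE 0.44, adjusted p = 0.51) for Chac1, 0.36 (SE 0.41, adjusted p = 0.56) for Sesn2 and -0.45 (SE 0.23, adjusted p = 0.14) for Ppp1r15a. Smaller changes in liver were found for Ern1 (-1.26), Herpud1 (-0.86), Derl2 (-0.53) and Canx (-0.43); leaving out mouse 2, 4 or 7 ended the Derl2 call (adjusted p = 0.21, 0.063 and 0.065). When the same mice were used as their own reference, with 1 difference per mouse, Selenos lost its call (adjusted p = 0.058).

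The LPS change differed among tissues for 34 of the 37 genes, beside 65.3% of all genes. With the same contrast made for each tissue, brown fat had 19 genes with a larger change than the mean of the others and 0 smaller (beside 11.1% and 6.79% of all genes), colon 9 and 0 (4.88% and 4.97%) and spleen 1 and 12 (6.66% and 7.37%). Liver also started high. Its PBS level was above the mean of the 14 other tissues for 31 of the 37 genes and below it for 2, beside 22.5% and 37.8% of all genes, with a median of 0.93 against -0.23. The largest level differences were those of Herpud1 (2.67), Pdia5 (2.41), Derl2 (1.78) and Pdia4 (1.56), while Ddit3 (-0.79) and Asns (-0.75) were lower in liver. Ddit3 lost its call without mouse 2 or 3 (adjusted p = 0.052 and 0.11). Derl3, at 0.81, lost its call with 1 difference per mouse (adjusted p = 0.15) and without mouse 1, 3 or 4 (adjusted p = 0.20, 0.63 and 0.15). Among tissues of PBS mice, liver had the highest mean signal of Hsp90b1 (842 ± 118, SD, n = 4), Calr (1876 ± 179), Herpud1 (820 ± 173) and Xbp1 (264 ± 15.1). For Hspa5 the order was heart (631 ± 170), small intestine (609 ± 58.6) and liver (580 ± 80.6), which overlapped in spread.

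**Figure D4:**
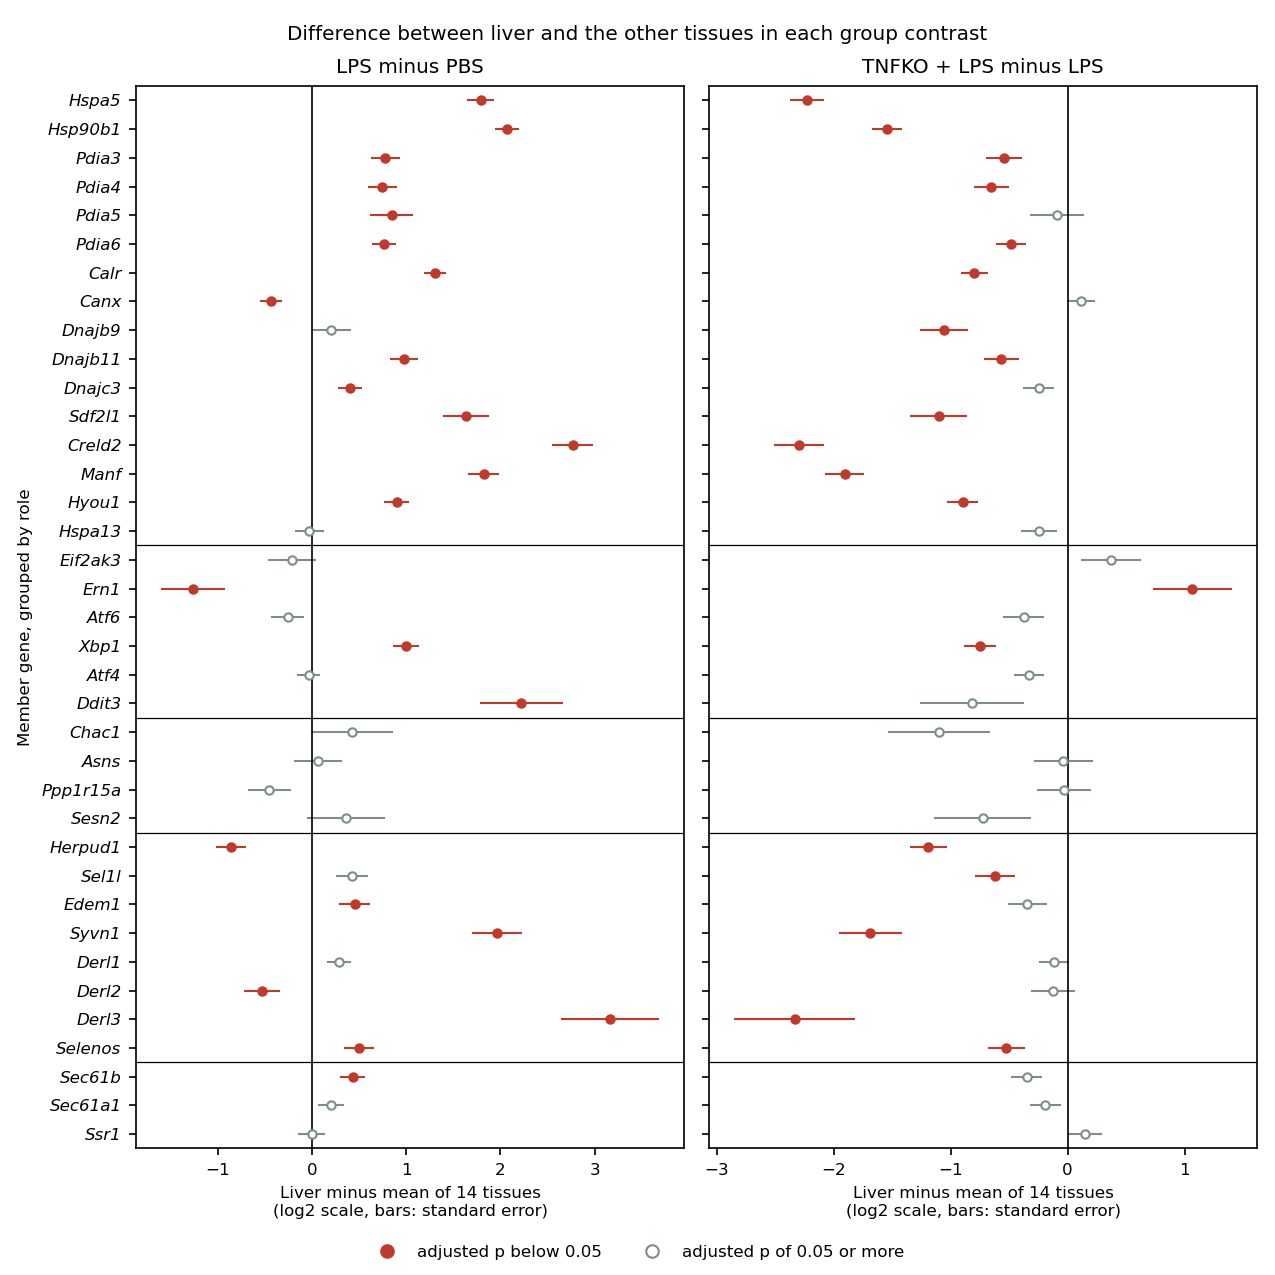
Difference between liver and the mean of the 14 other tissues for each of the 37 genes (log2 of signal + 1), for the change with LPS and for the difference between TNF-deficient and wild-type mice given LPS; points are estimates with standard error bars, filled where the adjusted p is below 0.05. Derl3, Creld2, Ddit3 and Hsp90b1 lie farthest to the right for the LPS change, and Derl3, Creld2 and Hspa5 farthest to the left for the genotype difference.

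The genotype difference also depended on tissue. Between TNF-deficient and LPS mice, the liver difference was smaller (more negative) than the mean of the other tissues for 18 of the 37 genes and larger for 1, Ern1, beside 3.75% and 4.75% of all genes, with a median of -0.54 against 0.01. The values were -2.33 (SE 0.52, adjusted p = 0.00068) for Derl3, -2.29 (SE 0.22, adjusted p = 9.3e-17) for Creld2, -2.23 (SE 0.15, adjusted p = 5e-29) for Hspa5 and -1.91 (SE 0.16, adjusted p = 1.6e-19) for Manf. Syvn1 (-1.69), Hsp90b1 (-1.54), Herpud1 (-1.19) and Sdf2l1 (-1.10) followed. These values also take in the other tissues, where calls on the listed chaperones were mostly toward higher signal in TNF-deficient mice. Within liver itself 13 members were called lower. Derl3, Calr, Pdia4, Sel1l, Dnajb11, Pdia3 and Pdia6 were among the 18 but were not called between genotypes within liver. With 1 difference per mouse the calls on Sel1l (adjusted p = 0.12), Selenos (0.10) and Ern1 (0.063) were lost, leaving 16 smaller and 0 larger. The Ern1 difference was also lost without mouse 5, 6, 8, 9 or 11 (adjusted p = 0.051 to 0.10), Sel1l without mouse 5 or 8 (0.066 and 0.15), Selenos without mouse 8, 10, 11 or 12 (0.27, 0.08, 0.053 and 0.066), and Pdia3 and Pdia6 without mouse 8 (0.067 and 0.057).

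**Figure D5:**
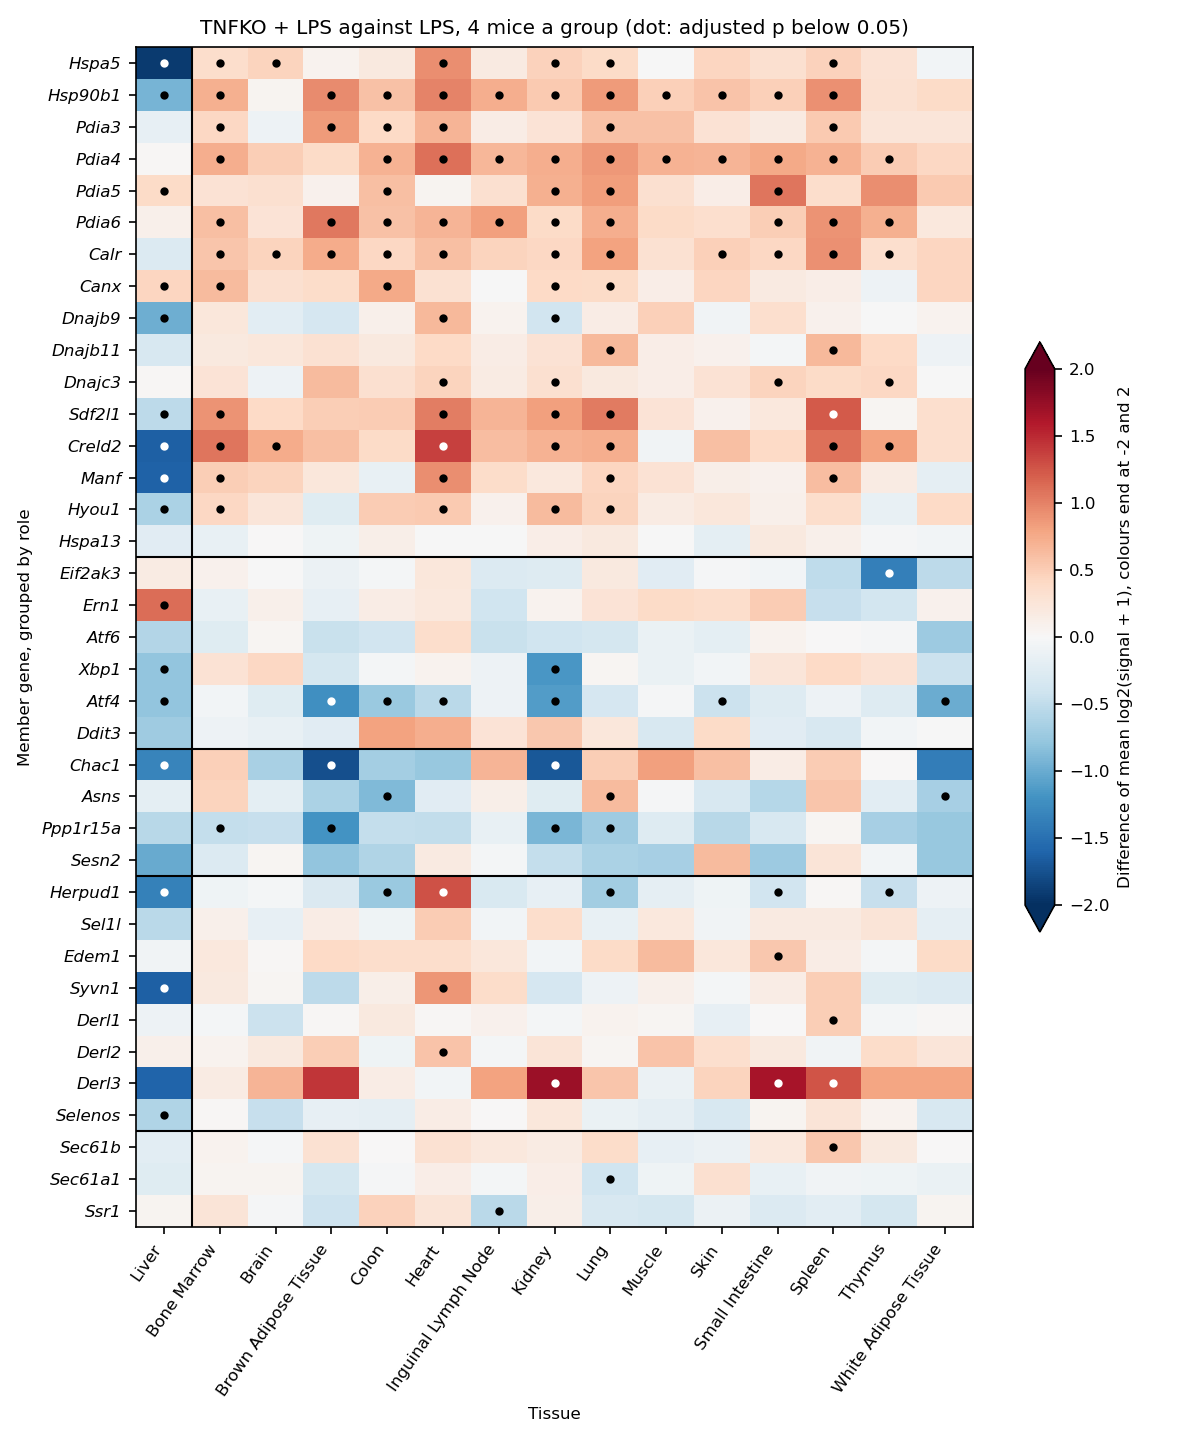
Difference between TNF-deficient and wild-type mice given LPS (TNF-deficient minus wild type, log2 of signal + 1) of the 37 genes in each of the 15 tissues, ordered as in the map of the LPS change; the colour scale ends at -2 and 2, and a dot marks an adjusted p below 0.05. Hsp90b1, Pdia4, Pdia6 and Calr are called higher in 10 or 11 columns, and the liver column is the only one in which Hspa5, Creld2, Manf and Hsp90b1 are called lower.

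Across the other 14 tissues, calls on the chaperones between TNF-deficient and wild-type mice given LPS were nearly all toward higher signal in the TNF-deficient mice. Over all 37 members, 100 of 518 tests were higher and 23 lower, beside 3.04% and 2.24% of all tests. For the 16 chaperones and folding enzymes 90 of 224 were higher and 1 lower, the latter being Dnajb9 in kidney (-0.39), a call that was lost in 7 of 8 fits without 1 mouse. The median of these 224 was 0.39. Hsp90b1, Pdia4 and Calr were each higher in 11 tissues and Pdia6 in 10. By tissue, heart had 15 members higher and 1 lower (beside 3.32% and 2.35% of all genes), lung 14 and 3 (3.71% and 2.28%), spleen 13 and 0 (2.56% and 1.59%), kidney 12 and 5 (13.2% and 6.82%), bone marrow 11 and 1 (2.57% and 3.55%), small intestine 8 and 1 (4.47% and 2.65%) and colon 7 and 3 (2.51% and 1.31%). Brown fat had 4 and 3 (1.70% and 1.23%), inguinal lymph node 3 and 1 (1.72% and 1.40%) and brain 3 and 0 (0.55% and 0.467%). Thymus had 5 and 2 (2.30% and 2.16%), skin 3 and 1 (1.43% and 1.36%), muscle 2 and 0 (1.82% and 2.16%) and white fat 0 and 2 (0.79% and 2.07%). Higher members in brain numbered 0 without mouse 7 or 8, 1 without mouse 11 or 12 and 5 without mouse 10. Those in brown fat numbered 7 without mouse 6, in thymus 3 without mouse 5, 7 or 12 and 1 without mouse 11, in muscle 5 without mouse 6 or 11, in skin 5 without mouse 6, and in white fat 3 without mouse 6 and 1 without mouse 10. Lower members in lung numbered 1 without mouse 7, 8, 9 or 12 and 5 without mouse 6, in small intestine 0 without mouse 5 or any of 8 to 12 and 3 without mouse 6, in bone marrow 0 without mouse 5, 8 or 12, in heart 2 without mouse 10, in inguinal lymph node 3 without mouse 6, in brain 1 without mouse 12, in skin 0 without mouse 5, 7, 8, 9, 11 or 12, in thymus 1 without mouse 7 or 9, and in white fat 1 without mouse 5, 8, 10 or 12. The LPS mice enter both this comparison and that with PBS, so each group's own values are given.

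In spleen, Calr read 1026, 1114, 978 and 934 in the PBS mice, 814, 897, 642 and 698 in the LPS mice and 1340, 1642, 1494 and 1278 in the TNF-deficient mice, and the TNF-deficient spleens stood above both other groups. The difference from LPS spleens was 0.92 (SE 0.10, adjusted p = 6.3e-07). Sdf2l1 read 53.2, 55.3, 49.4 and 42.1 in the PBS mice, 29.3, 55, 45.5 and 32.5 in the LPS mice and 100.2, 89.4, 80.7 and 105 in the TNF-deficient mice and differed by 1.23 (SE 0.18, adjusted p = 4.7e-05), again with TNF-deficient spleens above all others. In lung, Hsp90b1 read 462, 515, 529.6 and 515 in the PBS mice, 336, 403, 296 and 292 in the LPS mice and 643, 654, 571 and 529.6 in the TNF-deficient mice, with the LPS lungs lowest and no TNF-deficient lung below the highest PBS lung, and differed by 0.86 (SE 0.11, adjusted p = 1.3e-05). In heart the differences between genotypes were 1.37 (SE 0.21, adjusted p = 7.7e-05) for Creld2, 1.10 (SE 0.16, adjusted p = 4.6e-05) for Pdia4 and 0.94 (SE 0.14, adjusted p = 6.1e-05) for Hspa5. Plasma cells, which hold much ER, were followed through their marker genes: in spleen 2 of 7 were higher in TNF-deficient than in LPS mice, and in small intestine, where their sums were 755 to 1053 in PBS, 429.3 to 521.1 in LPS and 750.9 to 957.6 in TNF-deficient mice, 3 of 7. Their part in the chaperone differences was not tested.

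Atf4 went the other way. It was lower in TNF-deficient than in LPS mice in 7 tissues and higher in 0: brown fat (-1.22), kidney (-1.12), white fat (-1.0), liver (-0.79), colon (-0.75), heart (-0.53) and skin (-0.44, a call lost in 6 of 8 fits without 1 mouse). White fat read 131, 139, 119 and 122 in the PBS mice, 297, 273, 380.2 and 363 in the LPS mice and 161, 179, 158 and 153 in the TNF-deficient mice, with the TNF-deficient libraries between the other groups and close to PBS. Chac1 was lower in brown fat (-1.76 (SE 0.35, adjusted p = 0.0066)) and kidney (-1.69 (SE 0.30, adjusted p = 0.00021)), and Xbp1 in kidney (-1.17 (SE 0.13, adjusted p = 7.9e-07)). In muscle, by contrast, Ppp1r15a (-0.25) and Atf4 (-0.02) were not called between genotypes, and for both genes the TNF-deficient libraries stood above all PBS libraries.

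Against PBS mice, TNF-deficient mice given LPS had 145 of 555 tests higher and 10 lower, beside 6.71% and 6.13% of all tests. This comparison shares its PBS mice with the comparison of LPS and PBS, in which 125 were higher and 64 lower, beside 9.47% and 10.4%. Genotype and treatment both differ here and cannot be told apart.

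Other genes of secretion and stress were read from lists of the same pathway that hold no member. Of all liver genes 11.6% were higher and 13.5% lower with LPS. Beside these shares, 12 of 23 ER-to-Golgi transport genes were higher and 3 lower (median 0.55), led by Surf4 (0.95), Arf4 (0.94) and Sec24d (0.94), while Sar1b, a GTPase of COPII coats, fell by 1.64. Of 25 genes of translocation, signal peptidase and oligosaccharyltransferase, 12 were higher and 1 lower (median 0.34), led by the signal recognition particle receptor Srpr (1.15), and the lower gene was Sec62. Of 22 further folding enzymes, 5 were higher, among them Fkbp11 (1.58) and Qsox1 (1.23), and 2 lower, Prdx4 and Fkbp2. Of 19 further degradation genes 4 were higher and 3 lower. Of 28 further genes of the integrated stress response, the shared eIF2α route to ATF4, 9 were higher and 3 lower. Among these Fgf21, a hepatokine, rose by 1.32 and was 2.31 lower on the log2 scale in TNF-deficient livers, and Cth, an enzyme of cysteine synthesis, fell by 3.81 and was 2.82 higher in TNF-deficient than in LPS livers. Of 16 further sensors and regulators tested, 6 were higher and 1 lower. In the 14 other tissues the integrated stress response list was higher in 134 and lower in 21 of 387 tests (median 0.32), the further folding enzymes were higher in 15 and lower in 40 of 308 (median -0.14), and the transport genes were higher in 25 and lower in 23 of 322, beside 9.31% and 10.2% of all tests. Between genotypes in those 14 tissues, the folding list was higher in 29 and lower in 1 of 308 tests, and the integrated stress response list was higher in 13 and lower in 43 of 387, beside 3.04% and 2.24% of all tests.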

How the data were processed

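The authors deposited 1 table of signal values for 13820 genes in 180 libraries, named for CPM but scaled to other sums. Per the submitters' processing notes, FastQC, MultiQC, edgeR and the mm10 build were used; the aligner, the counting strand and the use of the 10 bp molecular identifiers are not given in the sources used here. Dividing the deposited signal by the smallest step of its library gave whole counts, within 0.1, for 100% of values in each library. Counting error limits the precision of low values, and PCR copies may be included.

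Values were taken as log2(signal + 1). A gene entered a tissue's test if its signal reached 1 in 4 or more of the 12 libraries. All 3 groups were fitted together by limma 3.58.1, with a mean-variance trend, under R 4.3.3, with Benjamini-Hochberg adjustment within tissue and a threshold of 0.05. Liver was compared with the mean of the other 14 tissues in a joint limma fit of 45 groups. The labels name the same mouse across tissues, which pairs them. Deviations of libraries from the same mouse had a median correlation of 0.0107, and those of other mice of the group -0.00342. Replicate pairs within groups (270) all differed beyond counting error, the smallest ratio of chi-squared to degrees of freedom being 1.18.

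The members and lists were chosen with earlier results of these data known. Values in every library are given in liver for 7 regulators (Hspa5, Xbp1, Atf4, Ddit3, Eif2ak3, Ern1 and Atf6), for the 10 largest called LPS changes and for up to 6 called genotype differences per direction, and in other tissues for the member with the largest called change per direction whose mean signal reached 10. Members called in the same direction in 10 or more tissues are named. Other genes were named after their values were seen. From each other list up to 4 genes by size in liver and genes against its direction were eligible.

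Alternatives were a pseudocount of 0.25, no filter, median-of-ratios scaling, the compared groups alone, the quasi-likelihood test of edgeR 4.0.16 on those whole counts, leaving out each mouse, and, for the joint fit, the mouse as a replicate block, 1 difference per mouse and, chosen after seeing the data, precision weights by level. Median-of-ratios scaling moved the median of all genes by less than 0.1 in every tissue and comparison. Brown fat was also fitted without mice 7 and 8, chosen after seeing the data. The scripts were tested on simulated data. Promoter windows came from RefSeq (GRCm38.p6).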

Additional observations from a re-analysis of the deposited data

Results flagged for a closer look

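In 6 of 111 groups of 4 liver libraries, 1 library stood far from the other 3, where chance gives about 1 in 20. They were Pdia6 in an LPS liver (547.7), Sesn2 in a TNF-deficient liver (2.65), Herpud1 in a PBS liver (1078), Syvn1 in an LPS liver (55.7), Derl2 in an LPS liver (71.3) and Selenos in an LPS liver (171.4).

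The change with LPS in liver differed from the mean of the 14 other tissues for 24 members. On the log2 scale the liver change was larger for Derl3 (3.17), Creld2 (2.77), Ddit3 (2.22), Hsp90b1 (2.07), Syvn1 (1.97), Manf (1.82), Hspa5 (1.79), Sdf2l1 (1.63), Calr (1.31), Xbp1 (1.00), Dnajb11 (0.98), Hyou1 (0.90), Pdia5 (0.85), Pdia3 (0.78), Pdia6 (0.77), Pdia4 (0.75), Selenos (0.50), Edem1 (0.46), Sec61b (0.44) and Dnajc3 (0.41). It was smaller for Ern1 (-1.26), Herpud1 (-0.86), Derl2 (-0.53) and Canx (-0.43). Pdia5 and Herpud1 had no called change within liver itself. When 1 mouse was left out, the calls on Derl2, Dnajc3, Edem1, Sec61b and Selenos were each lost in at least 1 fit, with adjusted p up to 0.21, 0.14, 0.12, 0.082 and 0.18, and that on Edem1 also with median-of-ratios scaling (adjusted p = 0.058).

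The difference between TNF-deficient and wild-type mice given LPS was lower in liver than in the mean of the other tissues for Derl3 (-2.33), Creld2 (-2.29), Hspa5 (-2.23), Manf (-1.91), Syvn1 (-1.69), Hsp90b1 (-1.54), Herpud1 (-1.19), Sdf2l1 (-1.10), Dnajb9 (-1.06), Hyou1 (-0.90), Calr (-0.80), Xbp1 (-0.75), Pdia4 (-0.65), Sel1l (-0.62), Dnajb11 (-0.57), Pdia3 (-0.54), Selenos (-0.52) and Pdia6 (-0.48), and higher for Ern1 (1.07). Without 1 mouse, adjusted p rose to 0.27 for Selenos, 0.15 for Sel1l, 0.10 for Ern1, 0.067 for Pdia3 and 0.057 for Pdia6, so that these calls were lost, and with 1 difference per mouse to 0.10, 0.12 and 0.063 for Selenos, Sel1l and Ern1. Derl3, Calr, Pdia4, Sel1l, Dnajb11, Pdia3 and Pdia6 were not called between genotypes within liver itself.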

How the results depend on the processing

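Of the counts over all 15 tissues, those for LPS against PBS ranged from 118 to 130 higher and 59 to 63 lower under the other settings, and from 108 to 122 and 53 to 72 when 1 mouse was left out. Those for TNF-deficient against LPS mice ranged from 95 to 110 higher and 34 to 48 lower, and from 77 to 125 and 25 to 47 without 1 mouse. Higher members in liver with LPS numbered 21 to 23, and 18 to 24 without 1 mouse. The count of members higher in TNF-deficient than in LPS livers, 3, ranged from 0 to 3 without 1 mouse. The 2 members with a lower PBS level in liver became 1 with precision weights and 1 to 2 without 1 mouse.

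With the mouse as a replicate block, by the mouse numbers of the labels, the LPS change was larger in liver for 20 members and smaller for 4, the genotype difference smaller for 19 and larger for 1, the PBS level higher for 31 and lower for 2, and 36 changes differed among tissues. No call on a single member was lost. With 1 difference per mouse the 1 larger genotype difference, that of Ern1, was 0, as also in some fits without 1 mouse, whose range was 0 to 1.

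Direction changed only for values near 0, none of them called. For Eif2ak3 in liver, LPS against PBS, the value was 0.011 with edgeR and ranged from -0.21 to 0.12 without 1 mouse. In TNF-deficient against PBS livers, Atf4 ranged from -0.011 to 0.17 without 1 mouse, Ern1 from -0.34 to 0.245 and Hspa5 from -0.052 to 0.0995. There Ern1 was -0.031 with median-of-ratios scaling and -0.15 with edgeR, and Hspa5 was -0.0095 and -0.012. The cause was not tested. Over the single results, leaving out 1 mouse kept 3809 on their side of the threshold and lost the call in 598 fits; edgeR kept 471 and lost 18. In brain, TNF-deficient against LPS, 3 higher members became 6 with edgeR or median-of-ratios scaling and 0 with the compared groups alone; in brown fat 4 became 2 without mice 7 and 8. With 4 mice per group and few counts behind genes such as Ddit3, Derl3, Ern1 and Chac1, small changes were not detectable.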

Other observations

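Among the 4 LPS livers, mouse 6 had the lowest signal for 13 of the 23 members called higher, mouse 7 for 7, mouse 5 for 3 and mouse 8 for 0, while mouse 8 had the highest for 11 and mouse 5 for 8. Hspa5 in the liver of mouse 6 was 1063, against 2499 to 3305 in the other LPS livers, and Syvn1 was 55.7 against 141.1 to 149.8. Replicates of a group have no order, and why this liver was lower was not tested.

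Pancreatic acinar genes, summed over 14 genes, varied widely between libraries of abdominal tissues, with 573.8 to 3836 in PBS small intestine, up to 4612 in PBS colon and up to 4027 in white fat of TNF-deficient mice. In small intestine the sums were 234.6 to 629.6 in LPS and 353.7 to 537.7 in TNF-deficient mice, 9 of the 14 were called lower with LPS, and 13 were called lower and 1 higher in TNF-deficient than in LPS mice. In spleen, where 13 of the 14 were called higher with LPS, 12 of 14 were called lower in TNF-deficient than in LPS mice. Acinar cells hold much ER. The part of these libraries in the values of the ER chaperones of small intestine, colon, white fat and spleen was not tested.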
